A study of Mus with 6 samples.

Results

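A set of 10 genes of DNA replication was followed in mouse pancreatic tumors: the MCM helicase genes Mcm2, Mcm3, Mcm4, Mcm5, Mcm6 and Mcm7, the clamp gene Pcna, the nucleotide-supply genes Rrm2 and Tyms, and the helicase-loading gene Cdc6. They were taken by Ensembl gene ID from the pathway they belong to, with no threshold on their values, though earlier results of these data were known. All 10 were present among the 15646 genes of the deposited count table, and all 10 were among the 14348 genes that passed the filter on low counts. The tumors were grown from KPC1199 cells, a mouse pancreatic ductal adenocarcinoma line, implanted in the pancreas. The hosts were ob/ob mice, which make no functional leptin and become obese (libraries obese 1, 3 and 4), or lean wild-type mice (libraries lean 1, 2 and 3). All tumors therefore came from 1 cell line, and the host genotype is the only difference the labels give; the sources used here do not give age, sex, diet, time after implantation or any pooling of animals. No label ties a library to an animal, so each p-value reflects the spread among libraries, part of which may be technical.

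The MCM proteins form a ring of Mcm2 to Mcm7 that is loaded on DNA at replication origins in G1 and becomes the core of the helicase that unwinds DNA in S phase. Cdc6, with the origin recognition complex and Cdt1, loads the ring. Pcna is the sliding clamp that holds DNA polymerases on their template, Rrm2 is the small subunit of ribonucleotide reductase, which makes deoxyribonucleotides, and Tyms is thymidylate synthase, which makes the precursor of dTTP. The genes are known as targets of E2F transcription factors and as markers of cells that have entered the cell cycle, in tumor cells as well as in dividing immune and stromal cells.

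Of the 10 genes, 5 rose in tumors of obese hosts, 0 fell and 5 did not pass the test (edgeR quasi-likelihood test, adjusted p under 0.05 over all genes). DESeq2 and limma-voom called the same 5 higher and 0 lower. The genes that rose were Cdc6, Tyms, Mcm7, Mcm6 and Mcm2, with fold changes from 1.34 for Mcm2 to 1.92 for Cdc6. Over all genes tested, 20.8% were called, 10.3% as higher and 10.6% as lower; among the 7320 genes within the same range of mean abundance as the 10, 11.5% were higher. The fitted change was above 0 for all 10 genes, which held for 50.9% of all genes. The levels of the 10 genes were positively correlated over the libraries in all 45 pairs. Their directions and calls are therefore not independent of one another. The median log2 fold change of the 10 was 0.42, beside 0.01 over all genes. The lean and obese libraries did not overlap for 5 of the 10 genes, all of them higher in obese tumors, against 20.3% of all genes. The calls depended on single libraries. When lean 2 or obese 1 was left out, edgeR called 0 of these genes, with 5 higher at an unadjusted p under 0.05 in each case (6 with all libraries). The number called higher was 1 on leaving out lean 3, 2 on leaving out obese 3, 3 on leaving out lean 1 and 5 on leaving out obese 4. Over all genes, 567 were called higher without lean 2, 702 without obese 1 and 782 without lean 3. Without obese 3, lean 1 or obese 4, 1468, 1287 and 964 were called higher, against 1474 with all libraries. In bulk tissue, more cells that express these genes and more of their RNA per cell cannot be told apart.

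Libraries held 7122533 to 8521244 counts, and the groups overlapped in total. On the first principal component of log2 CPM (CPM being counts scaled to the library's size and TMM factor), with 54.1% of the variance, the lean libraries lay at -46.0 to -25.6 and the obese at 29.0 to 43.6. On the second, with 15% of it, obese 3 lay at 37.7 and the other 5 libraries between -17.5 and 6.45. The variance between libraries of a group was 7.12 to 13.9 times that of sampling alone, so no pair looked like 1 library deposited again. Cell type markers could not be looked up, because no table used here pairs the other Ensembl IDs with symbols; the makeup of the tumors, and the loss of leptin, were not analysed here.

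Cdc6 (ENSMUSG00000017499.15, chr11:98907709-98923942 in GRCm38) had the greatest fold change of the 10 genes. Its level was 11.2 CPM in lean 1, 9.23 in lean 2 and 10.8 in lean 3, against 21.5 in obese 1, 24.2 in obese 3 and 14.4 in obese 4. The obese libraries all lay above the lean ones, and obese 4 stood closer to the lean libraries than to the other obese ones. The mean level went from 10.4 ± 1.02 CPM in the lean group to 20.0 ± 5.09 CPM in the obese group (SD, n = 3 each). The log2 fold change was 0.94 with a standard error (SE) of 0.22 and a 95% interval of 0.46 to 1.43 (edgeR adjusted p = 0.0150). Cdc6 was also the scarcest of the 10, with 65 to 198 counts per library. The call was kept in 4 of the 6 fits that left out a library and lost without lean 2 (edgeR adjusted p = 0.0639) and without obese 1 (edgeR adjusted p = 0.0518).

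**Figure D1:**
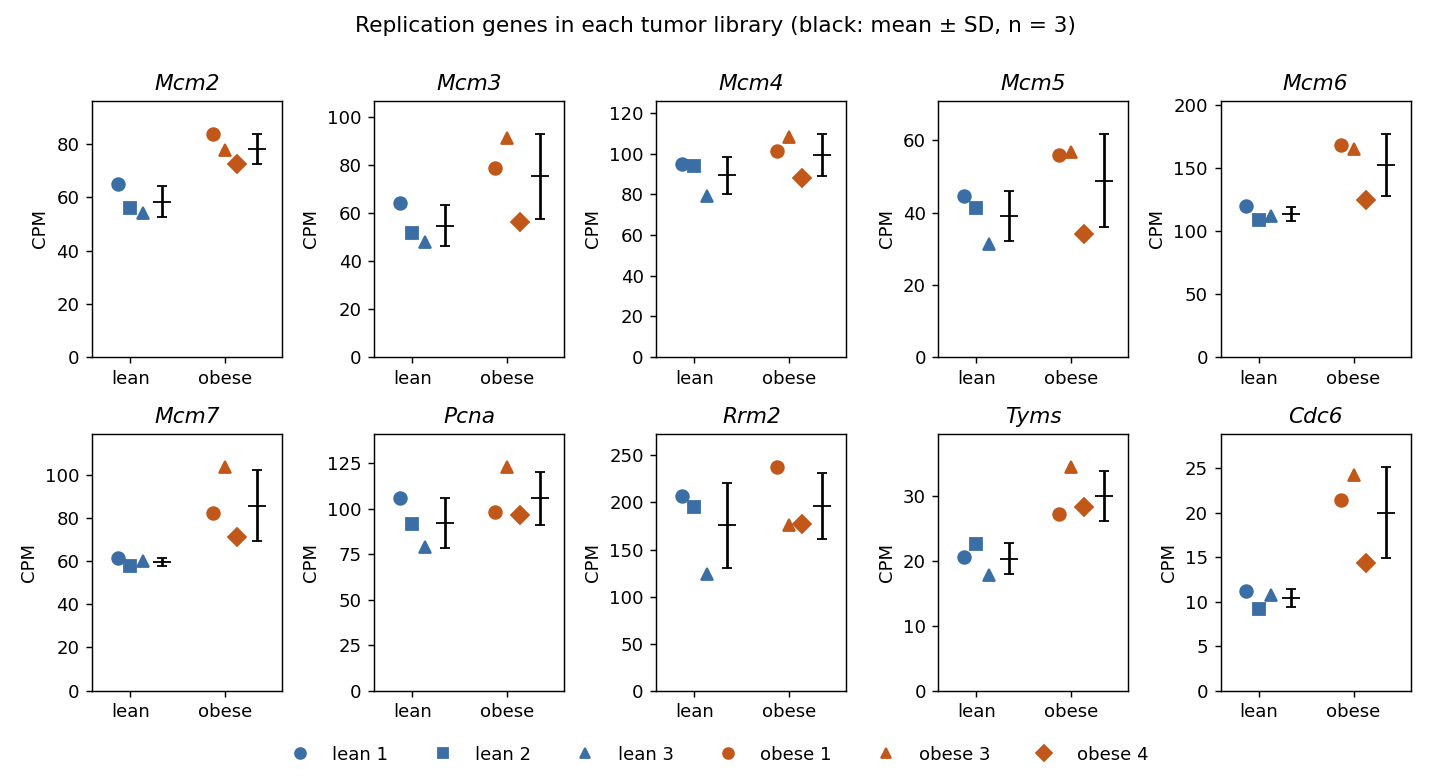
Level of each of the 10 genes in CPM (vertical axis from 0) in the 3 lean and 3 obese libraries, with 1 symbol per library and the mean ± SD of each group in black. The groups do not overlap for Mcm2, Mcm6, Mcm7, Tyms and Cdc6, and obese 4 is the lowest obese library for 8 of the 10 genes.

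Among the helicase genes, Mcm7, Mcm6 and Mcm2 rose, and Mcm3, Mcm5 and Mcm4 did not pass the test. Mcm7 (ENSMUSG00000029730.16, chr5:138164583-138172111) was at 61.4, 57.7 and 60.0 CPM in lean 1, 2 and 3 and at 82.3, 103 and 71.0 CPM in obese 1, 3 and 4. The lean libraries lay within a narrow band, with a coefficient of variation (SD over mean) of 3.14%, and every obese library lay above it; the obese coefficient of variation was 19.2%. Its log2 fold change was 0.52 (SE 0.14, 95% interval 0.21 to 0.82, edgeR adjusted p = 0.0249). The call was kept without lean 1 and without obese 4, and lost in the other 4 fits that left out a library, with edgeR adjusted p-values up to 0.0909. The annotated span of Mcm7 overlaps 4 other genes, the microRNA genes Mir25, Mir93 and Mir106b and the adaptor-complex gene Ap4m1. Because strand handling is not given, reads of Ap4m1 in the overlap, and unspliced RNA that carries the microRNAs, cannot be told apart from Mcm7 there.

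Mcm6 (ENSMUSG00000026355.11, chr1:128331575-128359705) was at 120 CPM in lean 1, 109 in lean 2 and 112 in lean 3, and at 169 in obese 1, 165 in obese 3 and 125 in obese 4. The lowest obese library was thus above the highest lean library, but by less than the gap between obese 4 and the other obese libraries. Fitted over all libraries, the log2 fold change was 0.43 (SE 0.13, 95% interval 0.15 to 0.70, edgeR adjusted p = 0.0360). This call was kept without obese 4 and lost in each of the other 5 fits that left out a library (edgeR adjusted p = 0.0556 to 0.127).

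Mcm2 (ENSMUSG00000002870.8, chr6:88883474-88898780) was at 65.1, 56.1 and 53.9 CPM in lean 1, 2 and 3 and at 83.7, 77.7 and 72.4 CPM in obese 1, 3 and 4. The groups did not overlap, and the spread was alike in them, with SDs of 5.89 and 5.66 CPM. Mcm2 rose by 0.42 on the log2 scale (SE 0.12, 95% interval 0.16 to 0.67, edgeR adjusted p = 0.0297). It lost the call without lean 2, lean 3 or obese 1 (edgeR adjusted p = 0.101, 0.105 and 0.108). With a block for replicate number it lost the call too (edgeR adjusted p = 0.0570). Numbers 2 and 4 occur in 1 group each, so lean 2 and obese 4 do not enter the group difference of that fit.

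Mcm3 (ENSMUSG00000041859.10, chr1:20802966-20820312) was at 64.2, 51.6 and 47.9 CPM in lean 1, 2 and 3 and at 78.4, 90.9 and 56.2 CPM in obese 1, 3 and 4. The groups overlapped, because obese 4 lay below lean 1. Its log2 fold change of 0.46 was larger than those of Mcm2 and Mcm6, but with an SE of 0.18 it did not pass the threshold (95% interval 0.07 to 0.85, edgeR adjusted p = 0.0852). It passed without obese 4, at 0.63 (edgeR adjusted p = 0.0281), and with the replicate block, at 0.60 (edgeR adjusted p = 0.0237). The group difference of the block fit draws on neither obese 4 nor lean 2.

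Mcm5 (ENSMUSG00000005410.6, chr8:75109468-75128439) was at 44.5, 41.2 and 31.4 CPM in lean 1, 2 and 3 and at 55.8, 56.8 and 34.03 CPM in obese 1, 3 and 4. Obese 4 lay below 2 of the 3 lean libraries, and the obese coefficient of variation, 26.3%, was the highest of the 10 genes. The log2 fold change was 0.32 with an interval of -0.12 to 0.77 (SE 0.20, edgeR adjusted p = 0.274). With the replicate block it was 0.59 and passed the test (edgeR adjusted p = 0.0341). Neither lean 2 nor obese 4 enters the group difference of that fit. With obese 4 alone left out, the log2 fold change of Mcm5 was 0.53 and did not pass (edgeR adjusted p = 0.0648). Mcm4 (ENSMUSG00000022673.5, chr16:15623897-15637400) was at 95.1, 93.7 and 79.0 CPM in lean 1, 2 and 3 and at 101, 108 and 87.9 CPM in obese 1, 3 and 4. Obese 1 and obese 3 lay above every lean library and obese 4 below lean 1 and lean 2. The log2 fold change of Mcm4 was 0.15, with an interval of -0.11 to 0.42, so a rise above 1.33-fold lay outside its 95% interval (edgeR adjusted p = 0.390). In the annotation the Mcm4 span ends 43 bp from that of Prkdc, the catalytic subunit of the DNA repair kinase DNA-PK.

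**Figure D2:**
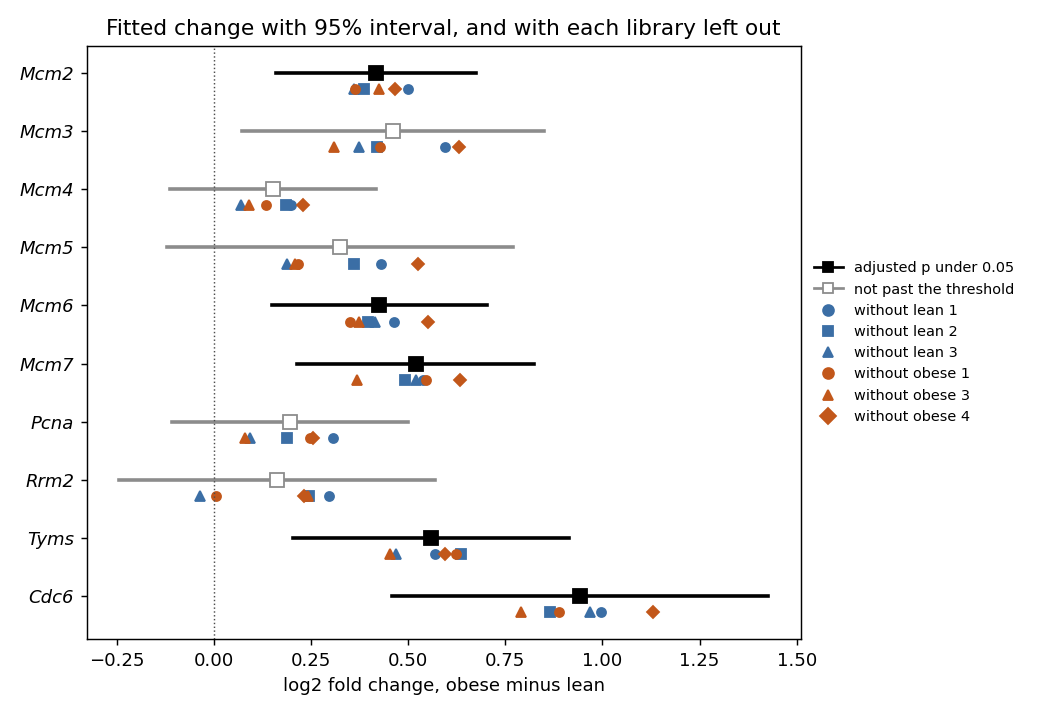
Fitted log2 fold change (obese minus lean, horizontal axis) of each gene with its 95% interval, filled black where the edgeR adjusted p was under 0.05 and open grey where not; coloured symbols give the fitted change with 1 library left out. The intervals of Mcm4, Mcm5, Pcna and Rrm2 include 0, and Rrm2 is the single gene whose change falls below 0 in one of these fits, at -0.035 without lean 3.

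Summed over Mcm2 to Mcm7, the level was 450.0, 409 and 384 CPM in lean 1, 2 and 3 and 570.3, 602 and 446 CPM in obese 1, 3 and 4. The sum separated obese 1 and obese 3 from the lean tumors, while obese 4 lay just below lean 1. The group means were 415 ± 33.2 and 539 ± 82.5 CPM (SD, n = 3 each).

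The ring is built from equal numbers of these proteins, and the makeup of the summed MCM counts was also compared between groups. The share of a gene depends on transcript length and is compared here for the same gene only. Mcm4 made up 21.1%, 22.9% and 20.6% of the MCM counts in lean 1, 2 and 3 and 17.8%, 18.0% and 19.7% in obese 1, 3 and 4. Each obese share of Mcm4 lay below each lean one, with means of 21.5% ± 1.22 and 18.5% ± 1.05 (SD, n = 3 each). The shares of a library are parts of 1 total, so that of Mcm4 can fall where other MCM genes rise more. By level, 2874 of all 14348 genes tested had every obese library below every lean one. No such background was computed for shares. The shares of the other 5 MCM genes overlapped between groups: the Mcm7 share, for example, was 14.4% ± 1.03 in lean and 15.8% ± 1.36 in obese tumors, and the Mcm5 share 9.38% ± 1.04 and 8.95% ± 1.16 (SD, n = 3 each). Whether Mcm4 changed less than the other subunits was not tested; an exact permutation test of 3 against 3 libraries cannot give a p below 0.1.

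**Figure D3:**
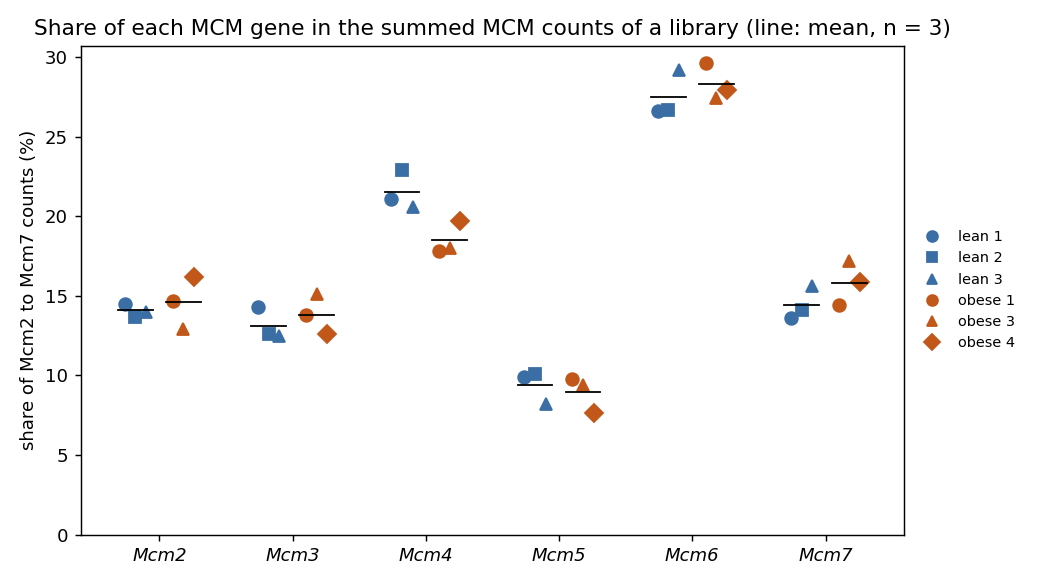
Share of each MCM gene in the counts summed over Mcm2 to Mcm7 (percent, vertical axis from 0), with 1 symbol per library and a line at each group's mean. The lean and obese libraries are apart for Mcm4, at 20.6% to 22.9% against 17.8% to 19.7%, and overlap for the other genes.

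Of the genes for nucleotide supply, Tyms rose and Rrm2 did not pass the test. Tyms (ENSMUSG00000025747.12, chr5:30038546-30073645) was at 20.7, 22.6 and 17.8 CPM in lean 1, 2 and 3 and at 27.2, 34.4 and 28.2 CPM in obese 1, 3 and 4. The groups did not overlap, and obese 4 was not the lowest obese library for this gene. Tyms rose by 0.56 on the log2 scale (SE 0.16, 95% interval 0.20 to 0.91, edgeR adjusted p = 0.0333). The call was lost in all 6 fits that left out a library, where the fitted change stayed between 0.45 and 0.64 and the edgeR adjusted p between 0.0547 and 0.114.

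Rrm2 (ENSMUSG00000020649.11, chr12:24708254-24714146) was at 207 CPM in lean 1, 196 in lean 2 and 124 in lean 3, and at 237 in obese 1, 176 in obese 3 and 177 in obese 4. Obese 3 and obese 4 lay below 2 lean libraries, and lean 3 stood well below the other 5. The log2 fold change was 0.16, with an interval of -0.24 to 0.57 (SE 0.18, edgeR adjusted p = 0.561), and it was -0.035 without lean 3 (edgeR adjusted p = 0.899). The spread of Rrm2 between lean libraries, a coefficient of variation of 25.5%, was far above what its counts allow: with 993 or more counts per library, counting error is at most 3.17%.

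Pcna (ENSMUSG00000027342.14, chr2:132249286-132253180) was at 106, 91.9 and 79.0 CPM in lean 1, 2 and 3 and at 98.3, 123 and 96.4 CPM in obese 1, 3 and 4. Obese 3 was the highest library, and lean 1 lay above the other obese libraries. The log2 fold change was 0.20, with an interval of -0.11 to 0.50 (SE 0.14, edgeR adjusted p = 0.333). The RefSeq gene table lists 2 pseudogenes named for Pcna and 1 named for Tyms; how the authors' counting treated reads shared with such copies is not given, so the levels of both genes are uncertain to that extent.

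Most of the genes tended to go up and down together over the libraries. Obese 3 was the highest obese library for 7 of the 10 genes and obese 4 the lowest for 8, while lean 1 was the highest lean library for 9 and lean 3 the lowest for 7. Averaged over the 10 genes, the deviation of log2 CPM from each gene's mean was -0.06, -0.19 and -0.36 in lean 1, 2 and 3 and 0.28, 0.37 and -0.04 in obese 1, 3 and 4. Obese 4 thus lay beside lean 1, on the side of the obese libraries by a small margin. This order is not that of the first principal component over all genes, on which obese 4, at 34.9, lay between obese 3 and obese 1 and far from lean 1.

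**Figure D4:**
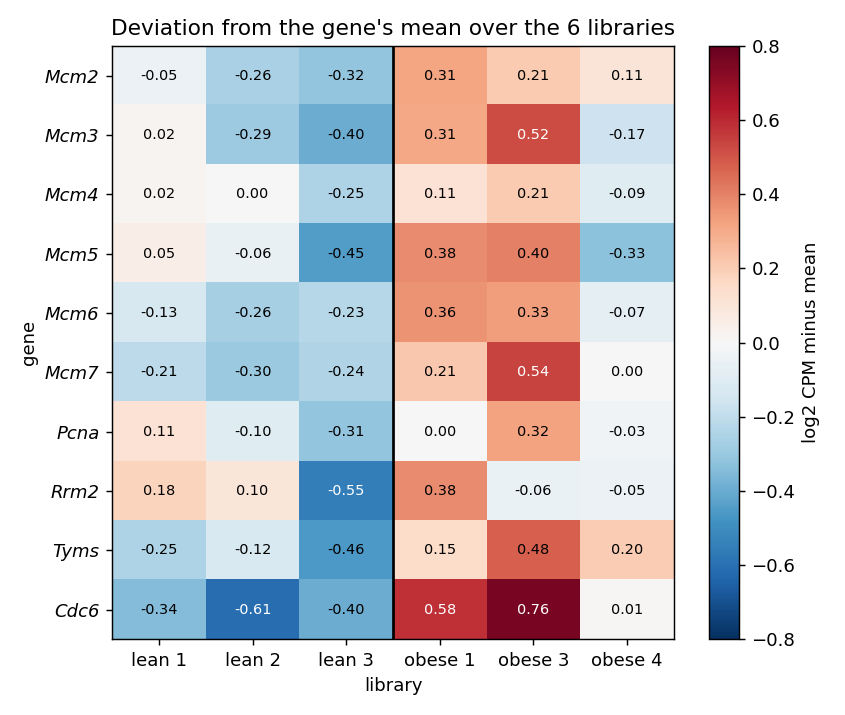
Deviation of log2 CPM from the gene's mean over the 6 libraries (colour and printed value), with genes in rows and libraries in columns and a line between lean and obese. Obese 1 and obese 3 are above the mean for most genes, lean 3 is below it for all, and Rrm2 in obese 3, at -0.06, departs from the other genes of that library.

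Across the 6 libraries, Pearson's r of log2 CPM within the MCM genes was 0.72 to 0.96 over the 15 pairs, with a median of 0.85. After each group's mean was taken out, it was 0.31 to 0.95 with a median of 0.76. The closest pairs after this centring were Mcm4 with Mcm5, at 0.95, and Mcm6 with Cdc6, at 0.945. Rrm2 was least like the rest: its r with the mean of the other 9 genes was 0.50, or 0.44 after centring, whereas Mcm3 had 0.965 and 0.967. Its lowest pair was with Mcm7, at 0.23, or -0.08 after centring. After centring, Tyms came next, at 0.53 with the mean of the other genes. Its centred r ranged from 0.12 with Mcm2 to 0.80 with Pcna. These correlations describe 6 libraries that share their scaling, and part of each uncentred value is the group difference itself. No correlations among other genes are given as a background.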

How the data were processed

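The 6 libraries hold tumor RNA sequenced after depletion of ribosomal RNA, per the labels' protocols. The values are raw read counts per gene, deposited by the authors in 1 table with versioned Ensembl IDs. The submitters' processing notes name CASAVA, STAR, Subread and the mouse build GRCm38; software versions, settings and how strand was handled: not given in the sources used here. Libraries titled OB were taken as obese and those titled ND as lean, the other kind of mouse in the design text. The counts were tested with edgeR 4.0.16 in R 4.3.3: default expression filter (minimum count 10, minimum total 15), TMM factors, quasi-likelihood F test, two-sided, no covariate, Benjamini-Hochberg adjustment over all 14348 genes tested. Each SE is the size of the log2 fold change over the root of F, and log2 CPM used a prior count of 2. The fit was tested on simulated data, but only with changes larger than those of most of the called members. How well it recovers changes as small as theirs was not tested. Alternatives were other scalings (upper-quartile, RLE, library totals alone), no filter, a minimum of 1 CPM in all 6 libraries, limma-voom (limma 3.58.1), DESeq2 1.42.0, a replicate block, and leaving out each library. Coordinates come from the RefSeq gene table of GRCm38.p6, matched by symbol for 10 of 10 genes. The members and lists were chosen with earlier results of these data known. All 10 members are named whatever their values; the planned pathway lists, marker lists and genes of most similar pattern need symbols for the other IDs and were not run. Cell-cycle phase lists keyed by Ensembl ID came from scran 1.30.0.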

Additional observations from a re-analysis of the deposited data

How the results depend on the processing

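Under the 3 other scalings, both other filters, DESeq2 and limma-voom, the same 5 genes (Cdc6, Tyms, Mcm7, Mcm6 and Mcm2) were called higher and 0 lower. With total counts only, 60.6% of all called genes were higher in obese tumors, against 49.3% with TMM, and the median of the 10 genes was 0.48 beside 0.07 over all genes. Leaving out 1 library gave 1179 to 3066 called genes overall (2991 with all), 0 to 5 of the 10 genes called higher, 0 called lower in each fit, and a median log2 fold change of the 10 of 0.34 to 0.54. The one reversed direction was that of Rrm2 without lean 3, in a range of -0.035 to 0.296 over these fits. Only replicate numbers 1 and 3 occur in both groups. Deviations of their libraries from the group means correlated at 0.09 and 0.074, with -0.131 to 0.066 for unlike numbers. Each value for a shared number exceeded all those for unlike numbers, though every value was small. With so few libraries, these values cannot decide whether libraries of the same number were paired. The replicate block left 2087 called genes, with 6 of the 10 higher (Mcm3, Mcm5, Mcm6, Mcm7, Tyms and Cdc6) and Mcm2 not. The group difference of the block fit draws only on the libraries numbered 1 and 3. It is thus a fit to part of the same libraries and not an independent check. The residual spread of the block fit comes from those libraries alone and leans heavily on what is shared across genes. Its adjusted p-values are less sure for that reason. The cause of the other differences between fits was not tested. Depth limits Cdc6 most: its shallowest library has 65 counts, a counting error of 12.4%.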

Other observations

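Phase lists keyed by Ensembl ID gave a wider view of the cell cycle. Their genes carry no symbol here. Each list holds genes that come first in the marker pairs of 1 phase alone, that is, above a partner gene in that phase. A place in a list is thus relative to the partners and does not make a gene specific to the phase. The S-phase list holds Mcm7. Among the other 34 of its genes that were tested, 4 rose and 3 fell (edgeR, adjusted p under 0.05) and 27 passed in neither direction; their median log2 fold change was 0.04. The list of G2 and M phases holds Mcm3; of the other 27 of its genes that were tested, 7 rose, 1 fell and 19 passed in neither direction, with a median of 0.36. Over all genes tested, 10.3% were called higher and 10.6% lower, and the median was 0.01. The counts of the S-phase list were thus near the shares over all genes. In the list of G2 and M phases, the 7 of 27 that rose lay above the share of 10.3%. The S-phase list holds only 1 of the 10 genes, so its counts say little about them. Neither list was tested as a set.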
